A study of Homo sapiens with 6 samples.

Results

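The splicing factors described here are the SR proteins, the heterogeneous nuclear ribonucleoproteins (hnRNPs) and the subunits of the SF3a and SF3b complexes, taken by gene symbol from the deposited table. Of its 50868 genes, 46 were members, namely 12 SRSF genes, 25 HNRNP genes and 9 SF3A or SF3B genes. Names with these stems that end in P and digits, 134 in all, are pseudogene symbols and were not members. HNRNPU-AS1 and HNRNPUL2-BSCL2 have the same stem but are an antisense and a readthrough symbol and were not members. The 6 RNA sequencing libraries come from Huh7, an established human hepatoma line labelled wild type in genotype. The cells received 1 of 2 peptides for 5 days at 20 µM, P-T3H2 in 3 libraries and P-T3H2-2A, labelled as its control, in the other 3. Both groups were thus peptide-treated, and no untreated library was analysed here. The study's stated interest was the action of P-T3H2 on the nuclear receptor HNF4α in liver cancer.

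SR proteins bind exonic enhancers through RNA recognition motifs and recruit the splicing machinery through domains rich in arginine and serine. The hnRNPs coat nascent transcripts, and many of them oppose SR proteins at silencer elements, so the balance between both classes sets many alternative splicing choices. SF3a and SF3b are parts of the U2 small nuclear ribonucleoprotein, which holds the branch site of the intron. Many genes of the SR and hnRNP families limit their own mRNA through splice forms that are removed by nonsense-mediated decay. In liver cancer, SRSF1, SRSF3 and HNRNPA1 are studied for splice forms that affect growth and metabolism.

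Total counts per library were between 17434442 and 21374732, and no pair of libraries agreed within sampling noise. Whether replicates came from separate cultures is not in the labels, and the p-values thus cover only the spread between these samples, possibly a technical one. Hepatocyte and hepatoma markers were present at high levels: albumin (ALB) stood at 6163, 5112 and 5721 CPM with P-T3H2, against 4291, 4191 and 5895 CPM with P-T3H2-2A. They did not move together, and the fibrinogen beta chain (FGB) stood at 746, 766 and 747 CPM with P-T3H2, against 2966, 3006 and 812 CPM with P-T3H2-2A. The 3 P-T3H2-2A libraries are called control libraries 1, 2 and 3 below, by their labelled replicate numbers. Control library 3 stood with the P-T3H2 libraries on the first principal component (68.6% of the variance): P-T3H2 replicates 1, 2 and 3 scored 33.5, 23.8 and 34.3, and P-T3H2-2A replicates 1, 2 and 3 scored -60.3, -58.6 and 27.3. Over all genes tested, its value was nearer to the P-T3H2 mean than to the mean of control libraries 1 and 2 for 78.6%. On the second principal component (8.93% of the variance), the P-T3H2 libraries scored -9.23, -9.26 and -12.1. Control libraries 1 and 2 scored 4.41 and -5.76 there, and control library 3 stood apart from all of these at 31.95. Whether the label of this library is right could not be settled from the files, and every value given as labelled rests on it. Results are therefore given for all 6 libraries as labelled and for the 5 libraries that remain without it. The 5-library fit was given its weight with the data in view, so its p-values are not independent evidence, and "rose" and "fell" below refer to it.

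Most of these genes were lower with P-T3H2 than in control libraries 1 and 2, by modest amounts, and control library 3 was on the side of the P-T3H2 libraries for most of them. Members were tested if they passed the filter on low counts, which 42 of the 46 did; HNRNPCL1, HNRNPCL2, HNRNPCL3 and HNRNPCL4 did not. As labelled, edgeR called 0 of 42 members in either direction at an adjusted p of 0.05, with adjusted p-values between 0.275 and 0.907, where 0.00627% of all genes tested were called higher and 0.0% lower. DESeq2 also called 0 members, against 0.204% of all genes called higher and 0.497% called lower. At an unadjusted p under 0.05, 7 members were lower and 0 higher, and over all genes tested 11.4% were lower and 6.58% higher. The median log2 fold change of the members was -0.19, against -0.0039 over all genes tested, and 35 of 42 members had a value below 0, as did 50.4% of all genes. In the 5-library fit, 27 of 42 members fell (64.3%) and 3 rose (7.14%), where 22.8% of all genes tested were called lower and 22.6% higher. Their median log2 fold change there was -0.24, against 0.0028 over all genes, and 34 of 42 members had a value below 0, as did 49.8% of all genes. By family, 4 of 12 SR protein genes fell and 2 rose, 15 of 21 tested hnRNP genes fell and 0 rose, and 8 of 9 SF3 genes fell and 1 rose. DESeq2 on the same 5 libraries called 28 members lower and 2 higher, where 19.7% of all genes were called lower and 19.1% higher. In bulk RNA, fewer cells of a type and less RNA per cell cannot be told apart, and a CPM (a normalised count scaled by library total and TMM factor) is a share of all RNA counted.

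The summed level of the tested and untested members gives the same picture in a single value for each family. The hnRNP genes together held 7238, 7332 and 7255 CPM with P-T3H2, against 8958, 8829 and 7253 CPM with P-T3H2-2A. The SF3 genes summed to 1909, 1968 and 1943 CPM with P-T3H2, against 2103, 2143 and 1941 CPM with P-T3H2-2A. For the SR protein genes the sums were 1797, 1711 and 1773 CPM with P-T3H2, against 1972, 1894 and 1817 CPM with P-T3H2-2A. Control libraries 1 and 2 were the highest libraries in all 3 sums, and control library 3 lay inside or close to the P-T3H2 range. It was nearer to the P-T3H2 mean for 8 of 12 SR protein genes, 21 of 21 hnRNP genes and 9 of 9 SF3 genes, where that held for 78.6% of all genes tested, called or not, and for 92.9% of those called in the 5-library fit. Set against that library as the sole control, 0 members were called in either direction, and 0.202% of all genes were called higher and 0.166% lower. The plot of each member by library shows where each value lies.

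**Figure D1:**
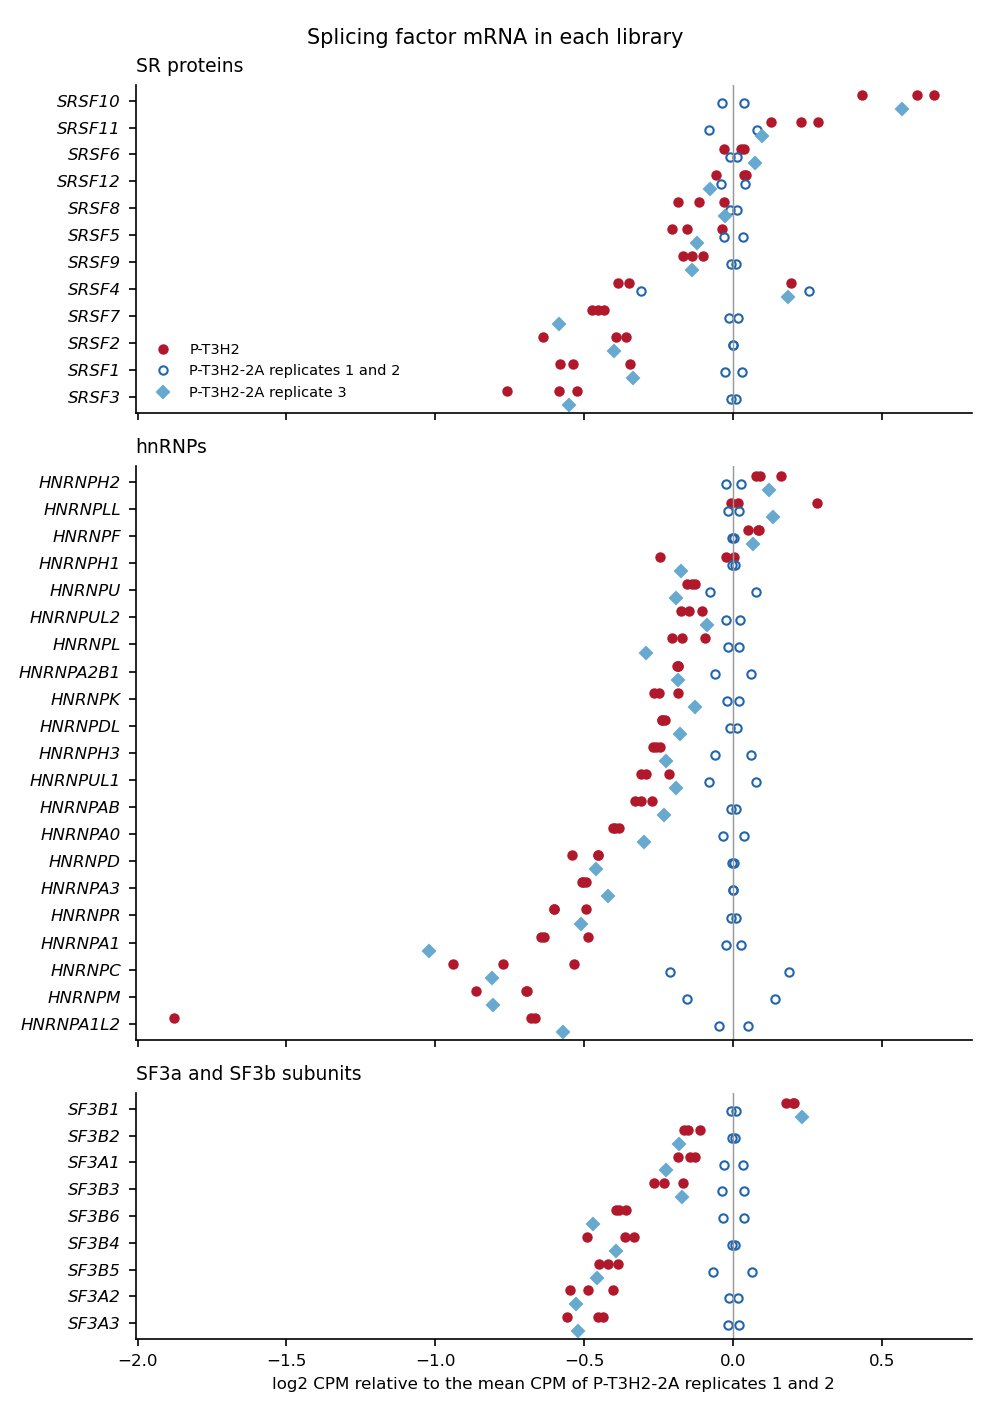
Each row is 1 tested member and each point 1 library, drawn as log2 CPM relative to the mean CPM of P-T3H2-2A replicates 1 and 2 (vertical line at 0): red circles are the 3 P-T3H2 libraries, open blue circles P-T3H2-2A replicates 1 and 2, and light blue diamonds P-T3H2-2A replicate 3. Most red circles lie left of 0 with the diamonds beside them, SRSF10, SRSF11 and SF3B1 lie right of 0, and SRSF4, HNRNPA1L2, HNRNPC and HNRNPM are spread within a group.

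Several markers of other cell types and of RNA quality had the same split of libraries, with control library 3 among the P-T3H2 libraries, and their part in the results on splicing factors was not tested. The leukocyte list summed to between 580.3 and 688 CPM with P-T3H2 and between 136 and 657 CPM with P-T3H2-2A. LYZ, lysozyme, made up nearly all of that sum, and 5 of the 8 genes of the list, CD3E among them, were under 1 CPM in every library. Of the 4 leukocyte markers tested, LYZ rose, with a 5-library log2 fold change of 2.30 ± 0.0852 SE (adjusted p = 1.35e-05, edgeR), whereas CD14 and CD68 fell, with -1.26 ± 0.172 SE (adjusted p = 0.00112, edgeR) and -2.12 ± 0.369 SE (adjusted p = 0.00334, edgeR). Cholangiocyte markers, carried by SOX9, summed to between 439.9 and 475 CPM with P-T3H2 and between 272 and 471 CPM with P-T3H2-2A. Of the 6 genes, 1 (KRT7) was under 1 CPM. Of the 5 tested, 3 rose and 0 fell. KRT19 and EPCAM were not called, with 5-library log2 fold changes of -0.037 and 0.045. Fibroblast markers, carried by PDGFRA, summed to between 105 and 118 CPM with P-T3H2 and between 61.9 and 116 CPM with P-T3H2-2A. ACTA2 was at 0, and 3 of 8 genes were under 1 CPM. Of the 5 tested, 2 rose and 0 fell. LUM, COL1A2 and COL3A1 were not called, with 5-library log2 fold changes of 0.73, -0.12 and -0.0495. Endothelial markers, carried by PECAM1, summed to between 4.99 and 5.17 CPM with P-T3H2 and between 4.15 and 11.9 CPM with P-T3H2-2A. KDR and TEK of the 5 genes were at 0. The 2 tested moved in opposite directions. PECAM1 fell, with a 5-library log2 fold change of -1.72 ± 0.133 SE (adjusted p = 0.000116, edgeR). VWF rose, with 4.16 ± 0.658 SE (adjusted p = 0.00217, edgeR), from a low level that was 0 CPM in control library 2. Hepatocyte and hepatoma markers, all 12 detected, summed to between 32540 and 34620 CPM with P-T3H2 and between 34950 and 36890 CPM with P-T3H2-2A, and 5 of them fell and 2 rose. Among RNA quality lists, the 13 mitochondrially encoded genes summed to between 68420 and 73880 CPM with P-T3H2 and between 59880 and 69150 CPM with P-T3H2-2A. The 4 nuclear retained RNAs, chiefly MALAT1 and NEAT1, summed to between 631 and 727 CPM with P-T3H2 and between 237 and 668 CPM with P-T3H2-2A.

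Promoter sequences of 5 members are printed here as examples, picked by hand and not as typical of their direction. In the 5-library fit, SRSF3, HNRNPAB and SF3A1 fell, and SRSF11 and SF3B1 rose. Each printed sequence holds the 250 bases before the gene's RefSeq start, which lies between 2 and 53 bases from the start in the deposited table. The sequences run 5′ to 3′ on the gene's strand, on GRCh38.p14, with matches to the searched motifs in capitals. They lie at chr6:36594112-36594361, plus strand (SRSF3), chr1:70205446-70205695, plus strand (SRSF11), chr5:178204283-178204532, plus strand (HNRNPAB), chr22:30356895-30357144, minus strand (SF3A1) and chr2:197435094-197435343, minus strand (SF3B1).
SRSF3: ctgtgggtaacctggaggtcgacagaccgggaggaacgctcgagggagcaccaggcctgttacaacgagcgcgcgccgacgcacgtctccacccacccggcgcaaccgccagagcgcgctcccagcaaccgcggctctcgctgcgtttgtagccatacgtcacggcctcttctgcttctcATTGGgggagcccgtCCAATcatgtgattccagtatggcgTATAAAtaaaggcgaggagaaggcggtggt
SRSF11: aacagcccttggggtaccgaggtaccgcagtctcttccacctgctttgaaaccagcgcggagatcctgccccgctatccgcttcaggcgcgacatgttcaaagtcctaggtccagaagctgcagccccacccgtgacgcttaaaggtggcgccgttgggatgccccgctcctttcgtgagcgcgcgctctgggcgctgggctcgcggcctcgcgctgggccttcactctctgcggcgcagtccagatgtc
HNRNPAB: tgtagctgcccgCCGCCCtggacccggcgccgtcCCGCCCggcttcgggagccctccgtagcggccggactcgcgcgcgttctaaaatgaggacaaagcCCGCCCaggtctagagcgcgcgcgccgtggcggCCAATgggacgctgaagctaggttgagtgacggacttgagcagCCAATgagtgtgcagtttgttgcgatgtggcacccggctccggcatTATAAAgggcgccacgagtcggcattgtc
SF3A1: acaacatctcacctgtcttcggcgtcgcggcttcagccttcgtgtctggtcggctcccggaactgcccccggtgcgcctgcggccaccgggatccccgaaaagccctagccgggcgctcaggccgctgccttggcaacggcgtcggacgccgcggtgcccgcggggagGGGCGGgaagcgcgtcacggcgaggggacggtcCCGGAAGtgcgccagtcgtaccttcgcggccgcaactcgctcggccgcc
SF3B1: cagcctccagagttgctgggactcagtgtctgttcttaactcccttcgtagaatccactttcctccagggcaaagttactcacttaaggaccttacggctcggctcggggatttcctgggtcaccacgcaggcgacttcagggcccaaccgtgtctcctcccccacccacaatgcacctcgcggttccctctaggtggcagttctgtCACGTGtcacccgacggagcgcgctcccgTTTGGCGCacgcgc
The search covered 9 motifs on both strands: the CCAAT box (CCAAT), the GC box (GGGCGG), an ETS site (CCGGAAG), the E-box (CACGTG), E2F sites (TTTCCCGC and TTTGGCGC), the cyclic AMP response element (TGACGTCA), the TATA box (TATAAA) and an HNF4 site (CAAAGTCCA). Capitals in SRSF3 mark CCAAT boxes, the first on the reverse strand, and a TATA box. Those in HNRNPAB mark GC boxes on the reverse strand, CCAAT boxes and a TATA box. A GC box and an ETS site are marked in SF3A1, and an E-box and an E2F site in SF3B1, while SRSF11 held none of the motifs. The promoter of SRSF1, which fell and is not printed, held none of them either. Matches of different motifs can share letters, as can matches of 1 motif. A match is a description of the letters and not a bound site.

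Promoters were found for 39 members. For some of them the RefSeq start lay far from the start in the deposited table, by 40242 bases for SRSF5, 23261 for HNRNPA1L2 and 1635 for SF3B2. The CCAAT box stood in 14 of 20 hnRNP promoters (70.0%), 2 of 11 SR protein promoters (18.2%) and 1 of 8 SF3 promoters (12.5%), and in 32.0% of all 35116 promoters. The ETS site was in 6 of 8 SF3 promoters (75.0%), 3 of 20 hnRNP promoters and 2 of 11 SR protein promoters (18.2%), and in 8.52% of all promoters. GC boxes stood in 80.0% of hnRNP, 75.0% of SF3 and 36.4% of SR protein promoters, and in 42.6% of all. The set of all promoters was not limited to tested genes or to 1 promoter per gene, so these shares compare unlike sets. The median count of the letters CG was 25 in member promoters and 11 in all promoters. The TATA box was in 4 of the 39 member promoters (10.3%) and in 10.7% of all promoters. The letters of the HNF4 site were in 0 of the 39 member promoters and in 0.325% of all promoters. At so low a share a set of 39 would hold few or none. The search used a single exact string, so this count cannot show a lack of HNF4 sites. The families thus differed in these letters while sharing a high GC content, with medians of 66.0% for hnRNP, 62.0% for SF3 and 62.4% for SR protein promoters, against 58.0% for all promoters. Of the 27 members that fell, 24 had a promoter in the table, of which 12 held a CCAAT box and 18 a GC box. Over all 39 member promoters, called or not, 17 held a CCAAT box and 26 a GC box. Of the 3 promoters of members that rose (SRSF10, SRSF11 and SF3B1), 0 held either. A set of 3 is too small to show a difference by direction, which was not tested. SRSF10 held an E2F site, as 1.39% of all promoters did.

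Among the SR proteins, SRSF1, SRSF2, SRSF3 and SRSF7 fell in the 5-library fit, SRSF10 and SRSF11 rose, and the other 6 were not called. SRSF3, the smallest of the SR proteins and one that shuttles between nucleus and cytoplasm (ENSG00000112081, chr6:36594353-36605600, GRCh38), stood at 214, 224 and 190.2 CPM with P-T3H2, against 324, 319.6 and 219.5 CPM with P-T3H2-2A. All P-T3H2 libraries were below control libraries 1 and 2, and control library 3 was inside the P-T3H2 range, so the labelled groups overlapped. Its log2 fold change without that library was -0.62 ± 0.073 SE (adjusted p = 0.000592, edgeR), which is 1.54-fold lower with P-T3H2; as labelled it was -0.46 ± 0.166 SE (adjusted p = 0.275, edgeR). SRSF1, the founding SR protein (ENSG00000136450, chr17:58003360-58007346), stood at 249.8, 218 and 212 CPM with P-T3H2, against 324, 311 and 251 CPM with P-T3H2-2A. Its labelled groups did not overlap, although the highest P-T3H2 library and control library 3 were almost level. Without that library the log2 fold change was -0.49 ± 0.0758 SE (adjusted p = 0.00203, edgeR), and as labelled -0.38 ± 0.126 SE (adjusted p = 0.275, edgeR). SRSF2, which binds both C-rich and G-rich enhancer motifs, had 82.7, 80.9 and 68.2 CPM with P-T3H2, against 106, 106 and 80.5 CPM with P-T3H2-2A. Here too control library 3 lay within the P-T3H2 range, and the 5-library log2 fold change was -0.46 ± 0.0886 SE (adjusted p = 0.00512, edgeR). SRSF7, a close relative of SRSF3, had 102, 98.8 and 100 CPM with P-T3H2, against 138, 136 and 91.4 CPM with P-T3H2-2A. Its lowest value was in control library 3, below every P-T3H2 library, and its 5-library log2 fold change was -0.46 ± 0.0476 SE (adjusted p = 0.000369, edgeR).

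SRSF10 and SRSF11 were the SR protein genes that rose. SRSF10 encodes a factor that represses splicing when dephosphorylated, as after heat shock (ENSG00000188529, chr1:23964804-23980927), and stood at 337, 296 and 350.1 CPM with P-T3H2, against 225, 214 and 325 CPM with P-T3H2-2A. The 3 P-T3H2 libraries and control library 3 were all well above control libraries 1 and 2. Without that library the log2 fold change was 0.58 ± 0.077 SE (adjusted p = 0.00104, edgeR), a level 1.49-fold higher with P-T3H2, and as labelled 0.36 ± 0.177 SE (adjusted p = 0.283, edgeR). SRSF11, also called SRp54, had 146, 136 and 152 CPM with P-T3H2, against 132, 118 and 133 CPM with P-T3H2-2A. It was the only member whose P-T3H2 libraries were all above all P-T3H2-2A libraries, a pattern found for 11.8% of all genes tested. Its 5-library log2 fold change was 0.21 ± 0.0715 SE (adjusted p = 0.047, edgeR), whereas DESeq2 on the same 5 libraries gave an adjusted p of 0.0825. The ratio of SRSF10 to SRSF3 in CPM, in which gene length plays the same part in every library, was 1.57, 1.32 and 1.84 with P-T3H2, against 0.695, 0.669 and 1.48 with P-T3H2-2A. Control libraries 1 and 2 had the low ratios and the other 4 libraries the high ones.

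SRSF6, the SR protein of highest FPKM, was close to level, at 344, 342 and 329 CPM with P-T3H2, against 334, 339 and 354 CPM with P-T3H2-2A. The groups overlapped, and the 5-library log2 fold change was 0.008 ± 0.0453 SE (adjusted p = 0.901, edgeR). SRSF8, a gene that arose by retrotransposition of SRSF2 mRNA, had 21.7, 22.8 and 24.1 CPM with P-T3H2, against 24.5, 24.9 and 24.2 CPM with P-T3H2-2A. Its groups did not overlap but almost met, with a 5-library log2 fold change of -0.11 ± 0.0806 SE (adjusted p = 0.297, edgeR). SRSF5 and SRSF9 had 5-library log2 fold changes of -0.13 and -0.14, and SRSF9 missed the threshold narrowly (edgeR, adjusted p = 0.0501). SRSF12, which is low in most tissues, was the lowest tested member per length, at 7.5, 7.53 and 7.02 CPM with P-T3H2, against 7.11, 7.53 and 6.93 CPM with P-T3H2-2A. SRSF4 varied within both groups, at 82, 79.9 and 119 CPM with P-T3H2, against 125, 84.3 and 118 CPM with P-T3H2-2A, so that P-T3H2 replicate 3 and control libraries 1 and 3 were high and the other libraries low. A difference for SRSF4 of the size seen in SRSF1 could not be told from that spread, since its 5-library standard error was 0.282.

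The hnRNP genes were mostly lower with P-T3H2: 18 of 21 tested members were below 0 both as labelled and in the 5-library fit, the medians of the log2 fold change were -0.19 and -0.26, and 0 members rose. Labelled groups did not overlap for 9 hnRNP members and 2 SR protein members that were lower, together 11 of 42 tested, where 11.6% of all genes tested had that pattern; for the SF3 genes it was 0 of 9. Within the hnRNP A and B group, HNRNPA3, a partner of hnRNP A2 on trafficked mRNAs (ENSG00000170144, chr2:177212563-177223958), stood at 363, 364 and 366 CPM with P-T3H2, against 516, 516 and 385 CPM with P-T3H2-2A. The P-T3H2 libraries were within a few CPM of each other, all below all P-T3H2-2A libraries, and control library 3 was much nearer to them than to the other controls. Without that library its log2 fold change was -0.50 ± 0.0399 SE (adjusted p = 0.000127, edgeR), and as labelled -0.37 ± 0.129 SE (adjusted p = 0.275, edgeR). HNRNPA0, an intronless gene whose protein binds AU-rich elements, had 222, 219 and 220.2 CPM with P-T3H2, against 297, 283 and 235 CPM with P-T3H2-2A. Its groups did not overlap, and the 5-library log2 fold change was -0.40 ± 0.0458 SE (adjusted p = 0.000554, edgeR). HNRNPAB, the gene of the CArG-box binding factor and shown above with its promoter, had 272, 268 and 279 CPM with P-T3H2, against 335, 339.6 and 287 CPM with P-T3H2-2A. Again the groups did not overlap, with a 5-library log2 fold change of -0.31 ± 0.0431 SE (adjusted p = 0.00131, edgeR). HNRNPA2B1, which encodes hnRNP A2 and hnRNP B1, stood at 1174, 1174 and 1171 CPM with P-T3H2, against 1278, 1390 and 1174 CPM with P-T3H2-2A. The P-T3H2 libraries and control library 3 were level, and the 5-library log2 fold change was -0.19 ± 0.0464 SE (adjusted p = 0.0148, edgeR).

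HNRNPA1 encodes the classical antagonist of SRSF1 (ENSG00000135486, chr12:54280193-54287088) and stood at 316, 349.6 and 313 CPM with P-T3H2, against 498, 481 and 241 CPM with P-T3H2-2A. Its lowest library was control library 3. As labelled, the log2 fold change was -0.32 ± 0.267 SE (adjusted p = 0.463, edgeR), and without that library -0.59 ± 0.0617 SE (adjusted p = 0.000374, edgeR). The ratio of SRSF1 to HNRNPA1 in CPM was 0.792, 0.625 and 0.678 with P-T3H2, against 0.65, 0.646 and 1.04 with P-T3H2-2A. Control library 3 was the highest in this ratio, and the other 5 libraries lay between 0.625 and 0.792. The ratio rests on the HNRNPA1 row alone, without the rows named as its pseudogenes that are described next. A ratio to the sum of these rows was not formed, so the place of control library 3 is uncertain. The gene has many processed copies: 75 rows of the table are named as pseudogenes of HNRNPA1, 41 of them with counts, and together they held between 68.0% and 75.3% of the CPM of the gene and these rows. Reads of the near-identical copies could have been split between rows by the authors' counting, so the level of HNRNPA1 itself is uncertain. Summed over the gene and these rows, the values were 1013, 1091 and 987 CPM with P-T3H2, against 1750.0, 1722 and 977 CPM with P-T3H2-2A. In the sum, as in the gene row alone, control libraries 1 and 2 were the high libraries. The 5-library log2 fold change of the sum was -0.76 ± 0.0529 SE (adjusted p = 8.02e-05, edgeR), and as labelled -0.53 (adjusted p = 0.275, edgeR). For HNRNPA3, whose 16 such rows held between 42.8% and 44.5%, the sum gave a 5-library log2 fold change of -0.51, close to that of the gene row. The share was between 13.7% and 18.6% for HNRNPC and between 8.33% and 8.96% for HNRNPK. HNRNPA1L2, a retrotransposed copy of HNRNPA1 that is listed as coding, had 20.3, 8.83 and 20.5 CPM with P-T3H2, against 33.6, 31.4 and 21.9 CPM with P-T3H2-2A; P-T3H2 replicate 2 was far below the other libraries, and it was not called, with a 5-library value of -0.98 ± 0.407 SE (adjusted p = 0.131, edgeR), while DESeq2 on the same 5 libraries gave an adjusted p of 0.014. The plot of gene and pseudogene rows shows both parts by library.

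**Figure D2:**
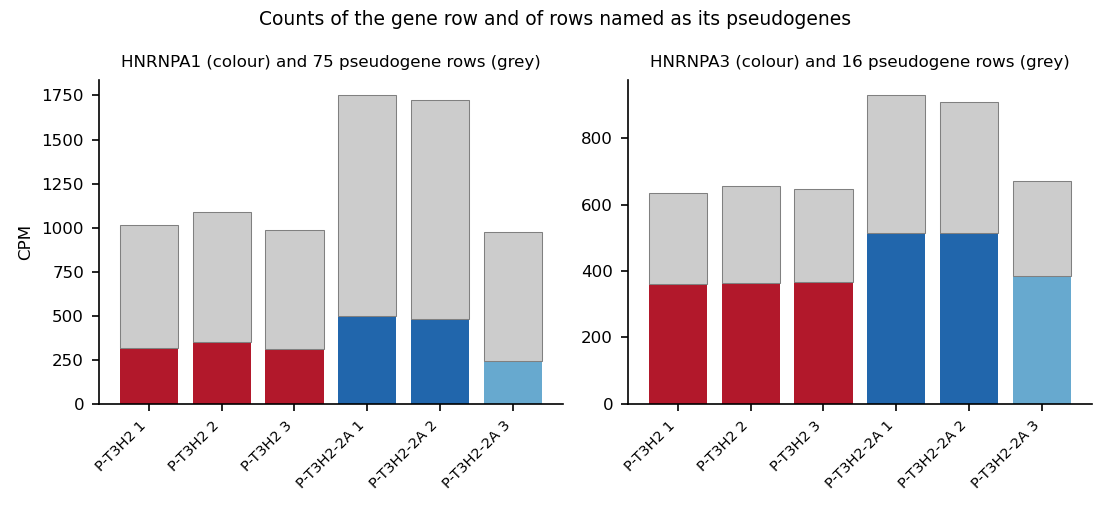
Bars give the CPM of the gene row (coloured: red for P-T3H2, blue for P-T3H2-2A replicates 1 and 2, light blue for replicate 3) with the CPM of all rows named as its pseudogenes stacked on top (grey), for HNRNPA1 with 75 such rows and HNRNPA3 with 16, in each of the 6 libraries. For HNRNPA1 the P-T3H2 stacks lie between 987 and 1091 CPM, against 1750.0, 1722 and 977 CPM for the P-T3H2-2A stacks.

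HNRNPM and HNRNPC had the largest fold changes of the hnRNP genes called. HNRNPM, a nuclear protein known for GU-rich binding and for splicing in epithelial to mesenchymal transition (ENSG00000099783, chr19:8444767-8489114), stood at 229, 228 and 204 CPM with P-T3H2, against 332, 408 and 212 CPM with P-T3H2-2A. Control libraries 1 and 2 were the 2 highest libraries and differed between themselves, and the labelled groups overlapped through control library 3. The 5-library log2 fold change was -0.75 ± 0.0997 SE (adjusted p = 0.00168, edgeR), and as labelled -0.53 ± 0.23 SE (adjusted p = 0.275, edgeR); the labelled value was -0.31 without control library 2. HNRNPC, which forms the tetramer that measures RNA length and masks uridine-rich tracts (ENSG00000092199, chr14:21209136-21269494), stood at 233, 262 and 308 CPM with P-T3H2, against 508, 385 and 255 CPM with P-T3H2-2A. It varied in both groups, and its 5-library log2 fold change was -0.74 ± 0.177 SE (adjusted p = 0.0278, edgeR). HNRNPR, a relative of SYNCRIP found in axonal RNA transport, had 242, 261 and 242 CPM with P-T3H2, against 366, 370.1 and 258 CPM with P-T3H2-2A. Only P-T3H2 replicate 2 was above control library 3, and the 5-library log2 fold change was -0.57 ± 0.0519 SE (adjusted p = 0.000213, edgeR). HNRNPD, also called AUF1 and a factor in the decay of AU-rich mRNAs, had 187, 199 and 199 CPM with P-T3H2, against 272, 273 and 198 CPM with P-T3H2-2A. The 5-library log2 fold change was -0.48 ± 0.049 SE (adjusted p = 0.000322, edgeR), and the labelled groups overlapped.

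Several hnRNP genes combined small changes with tight P-T3H2 replicates, while their P-T3H2-2A libraries were more spread. HNRNPDL, a paralogue of HNRNPD that lies 48.1 kb from it on chromosome 4, had 313, 313 and 316 CPM with P-T3H2, against 373, 367 and 327 CPM with P-T3H2-2A. HNRNPH3, a member of the hnRNP F and H group that binds G-rich runs, had 235, 232 and 233 CPM with P-T3H2, against 291, 268 and 238 CPM with P-T3H2-2A. HNRNPK, a poly(C)-binding protein and the hnRNP of highest FPKM, had 642, 635 and 671 CPM with P-T3H2, against 774, 753 and 699 CPM with P-T3H2-2A. In these 3 genes every P-T3H2 library was below every P-T3H2-2A library. Their 5-library log2 fold changes were -0.24, -0.26 and -0.24, with edgeR adjusted p-values of 0.00333, 0.00595 and 0.00462. HNRNPUL1 and HNRNPUL2 encode proteins related to the scaffold attachment factor hnRNP U and act in the response to DNA breaks. HNRNPUL1 had 354, 373 and 350 CPM with P-T3H2, against 457, 410.2 and 379 CPM with P-T3H2-2A. HNRNPUL2 had 378, 371 and 389 CPM with P-T3H2, against 412, 425 and 394 CPM with P-T3H2-2A. Neither pair of groups overlapped, and the 5-library log2 fold changes were -0.27 and -0.14 (edgeR, adjusted p = 0.0102 and 0.0336). HNRNPL, which binds CA repeats, was called as well, at -0.16 (edgeR, adjusted p = 0.0361).

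The hnRNP F and H group was split. HNRNPF, HNRNPH1 and HNRNPH2 were not called, with 5-library log2 fold changes of 0.07, -0.088 and 0.11, and HNRNPH3 fell. HNRNPF stood at 246, 245 and 239.6 CPM with P-T3H2, against 231, 232 and 242 CPM with P-T3H2-2A, so that its P-T3H2 libraries and control library 3 were above control libraries 1 and 2. HNRNPLL, a regulator of CD45 splicing in lymphocytes, and HNRNPU were not called either, at 0.10 and -0.14. HNRNPU had 879.6, 887 and 869 CPM with P-T3H2, against 1021, 917 and 848 CPM with P-T3H2-2A, and control library 1 was its highest library. Of the 4 untested genes, HNRNPCL2, HNRNPCL3 and HNRNPCL4 were at 0 counts in all libraries and HNRNPCL1 had 10 counts over all 6. These hnRNP C-like genes stand close together on chromosome 1.

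The SF3 genes shifted together apart from 1 subunit. All 9 were called in the 5-library fit, 8 lower and 1 higher, where 22.8% of all genes tested were called lower and 22.6% higher. The log2 fold changes lay between -0.48 and 0.19, with a median of -0.38. As labelled, the median was -0.24 and 0 were called. In SF3a, SF3A3, a zinc finger subunit that binds SF3A1 (ENSG00000183431, chr1:37956975-37990921), stood at 157, 171 and 168 CPM with P-T3H2, against 228, 234 and 161 CPM with P-T3H2-2A. SF3A2, the other zinc finger subunit, had 80.8, 89.3 and 84.3 CPM with P-T3H2, against 117, 119 and 81.8 CPM with P-T3H2-2A. In both genes the P-T3H2 libraries and control library 3 lay together below control libraries 1 and 2. Their 5-library log2 fold changes were -0.48 and -0.48, with standard errors of 0.054 and 0.06 (edgeR, adjusted p = 0.000477 and 0.00078). As labelled, the values were -0.33 and -0.32 with adjusted p-values of 0.279 and 0.282. SF3A1, the scaffold of SF3a whose promoter is shown above, changed less, by -0.15 ± 0.0478 SE (adjusted p = 0.0347, edgeR).

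In SF3b, the small subunits had the larger estimated decreases, a difference between subunits that was not tested. SF3B5, a short protein packed against SF3B1 and SF3B3 and encoded by a single exon (ENSG00000169976, chr6:144094881-144095573), had 77.3, 79.1 and 75.7 CPM with P-T3H2, against 98.7, 108 and 75.3 CPM with P-T3H2-2A. SF3B4, which touches the pre-mRNA upstream of the branch site, had 67.6, 75.5 and 73.9 CPM with P-T3H2, against 94.7, 95.5 and 72.3 CPM with P-T3H2-2A. SF3B6, the protein that contacts the branch point adenosine, had 59.8, 59.5 and 60.8 CPM with P-T3H2, against 79.98, 76.1 and 56.4 CPM with P-T3H2-2A. Control library 3 was the lowest library for SF3B5 and SF3B6 and lay inside the P-T3H2 range for SF3B4. The 5-library log2 fold changes of SF3B5, SF3B4 and SF3B6 were -0.42, -0.40 and -0.38, with edgeR adjusted p-values of 0.00133, 0.00238 and 0.00146. The large subunits SF3B2 and SF3B3 had -0.14 and -0.22, with adjusted p-values of 0.0344 and 0.00991. SF3B1, the scaffold that clamps the branch helix and a recurrent site of mutation in blood cancers (ENSG00000115524, chr2:197389784-197435091), went the other way, at 701, 690.5 and 703 CPM with P-T3H2, against 614, 608 and 716 CPM with P-T3H2-2A. All P-T3H2 libraries and control library 3 were above control libraries 1 and 2. Its 5-library log2 fold change was 0.19 ± 0.0397 SE (adjusted p = 0.00707, edgeR), and as labelled 0.11 ± 0.0932 SE (adjusted p = 0.459, edgeR). The CPM ratio of SF3B1 to SF3B5 was 9.07, 8.73 and 9.29 with P-T3H2, against 6.22, 5.62 and 9.51 with P-T3H2-2A, which again set control libraries 1 and 2 apart from the other 4 libraries. The plot of fold changes sets both fits side by side for every tested member.

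**Figure D3:**
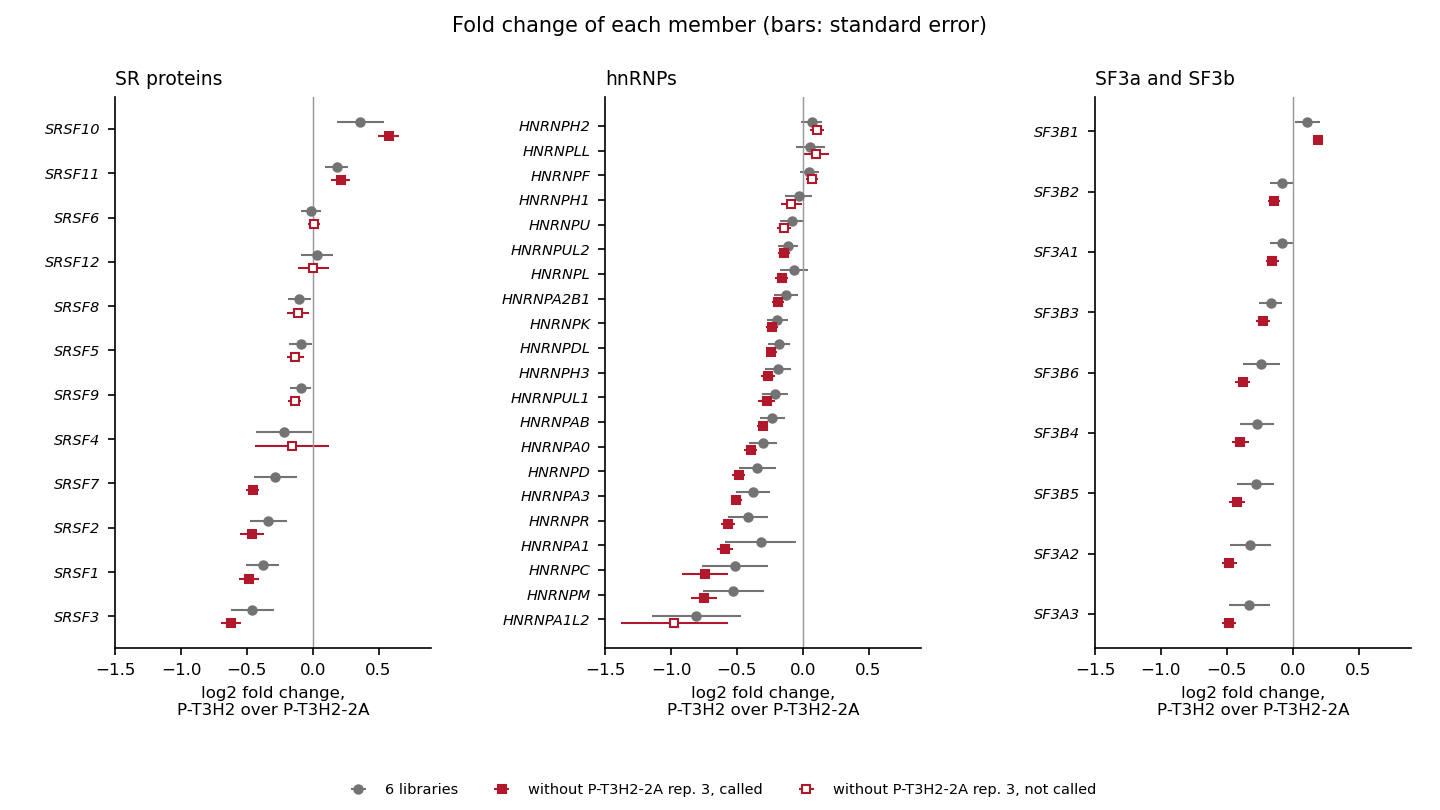
Log2 fold changes of P-T3H2 over P-T3H2-2A from edgeR for the 42 tested members by family, with bars of 1 standard error: grey circles are the fit of all 6 libraries as labelled, red squares the fit without P-T3H2-2A replicate 3, filled where the adjusted p was under 0.05. The grey bars are longer and their circles mostly nearer to 0, 27 filled squares lie left of 0, and the filled squares right of 0 are SRSF10, SRSF11 and SF3B1.

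Other genes of the splicing machinery were counted in 9 lists of 156 genes, chosen by function. As labelled, edgeR called 0 genes in each of the 9 lists. Over all genes tested, the fit without control library 3 called 22.8% lower and 22.6% higher. In the 5-library fit, the U1 and Sm core list had 7 of 10 tested genes lower and 0 higher (median log2 fold change -0.58), and the U5 and tri-snRNP list had 16 of 22 lower and 0 higher (-0.35). The U2 partner list had 7 of 15 lower and 0 higher (-0.20), and the list of catalytic step proteins 10 of 23 lower and 1 higher (-0.22). The core ribonucleoprotein lists thus had medians further from the all-gene value of 0.0028 than the lists of regulators. SR-related proteins had 5 of 16 lower and 3 higher (0.054), SR protein kinases and their cofactors 3 of 13 lower and 1 higher (0.028), and hnRNP proteins with other symbols 7 of 16 lower and 3 higher (-0.14). Nonsense-mediated decay factors had 4 of 15 lower and 4 higher (0.069), and other tissue-regulated regulators 5 of 20 lower and 9 higher (0.11). The plot of shares called sets these lists beside the 3 families.

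**Figure D4:**
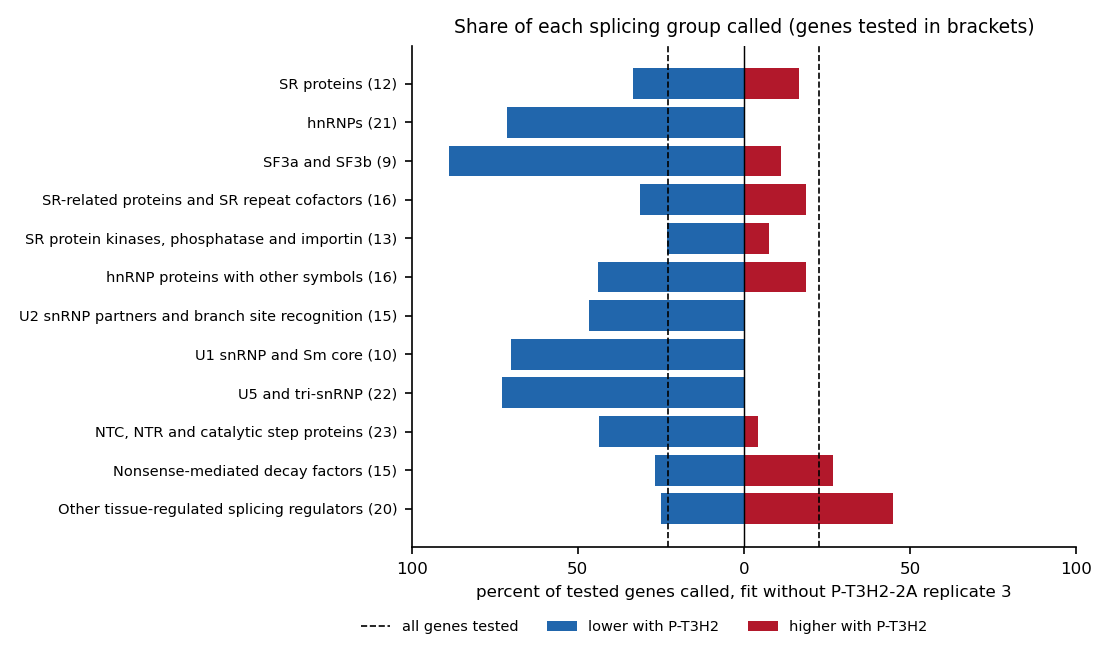
Percent of tested genes called by edgeR without P-T3H2-2A replicate 3, lower with P-T3H2 to the left (blue) and higher to the right (red), for the 3 families and the 9 other splicing lists, with the number tested in brackets. Dashed lines mark all genes tested, 22.8% lower and 22.6% higher; the SF3 bar reaches 88.9% on the left and the bar of tissue-regulated regulators, 9 of 20 genes, is the longest on the right.

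The 2 genes of smallest p with 6 libraries in each list are given singly. SNRPF, a Sm ring protein, stood at 56.4, 55.95 and 51.4 CPM with P-T3H2, against 96.5, 103 and 59.6 CPM with P-T3H2-2A, with a 5-library log2 fold change of -0.87 ± 0.066 SE (adjusted p = 0.000107, edgeR). MAGOHB, a core protein of the exon junction complex, had 23.6, 22.6 and 20.4 CPM with P-T3H2, against 46.4, 49.4 and 23.8 CPM with P-T3H2-2A, with -1.11 ± 0.0855 SE (adjusted p = 0.000115, edgeR). In both genes control library 3 was among or next to the P-T3H2 libraries. PPIH, a cyclophilin of the tri-snRNP, fell by 0.87 on the log2 scale, MAGOH by 0.74 and PRPF38A, a factor of spliceosome activation, by 0.56 (edgeR adjusted p between 0.000149 and 0.00028). PPP1CC, a catalytic subunit of the phosphatase that acts on SR proteins, had 122, 105 and 114 CPM with P-T3H2, against 169, 167 and 129 CPM with P-T3H2-2A, and its change was -0.56 ± 0.0684 SE (adjusted p = 0.000717, edgeR). SRPK1, a kinase of the SR domain, fell by 0.35, PNN by 0.44, RBMX (hnRNP G) by 0.49 and SYNCRIP (hnRNP Q) by 0.33 (edgeR adjusted p between 0.000414 and 0.00256). Among those with smaller changes, USP39, PPIE, SNRPB2 and HTATSF1 fell by between 0.28 and 0.39 (edgeR adjusted p between 0.0034 and 0.016). SNRPD2, at 23.5, 36.7 and 30.5 CPM with P-T3H2, against 42.05, 66.9 and 49.3 CPM with P-T3H2-2A, varied within both groups and was not called, with -0.85 ± 0.287 SE (adjusted p = 0.0752, edgeR). SRRM2, a large SR-related scaffold of nuclear speckles, rose, at 642, 673 and 675 CPM with P-T3H2, against 559, 584 and 548 CPM with P-T3H2-2A. Its P-T3H2 libraries were all above all P-T3H2-2A libraries, and the 5-library log2 fold change was 0.21 ± 0.0461 SE (adjusted p = 0.0085, edgeR). QKI, a regulator of alternative and circular splicing, rose by 0.46 and KHDRBS3 by 0.83 (edgeR, adjusted p = 0.0102 and 0.0054). CLK4, the 1 gene of the SR protein kinase list that rose, was not among its 2 of smallest p with 6 libraries. It stood at 30.1, 28.05 and 28.6 CPM with P-T3H2, against 13.1, 12.9 and 26.9 CPM with P-T3H2-2A. Its 5-library log2 fold change was 1.15 ± 0.0814 SE (adjusted p = 8.22e-05, edgeR).

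Levels can be compared between genes only per length. By deposited FPKM, averaged over all 6 libraries, SF3B5 was highest of all members at 124 ± 20.1 FPKM (SD, n = 6) and above 99.0% of all genes tested, followed by HNRNPK at 74.0 ± 5.94, HNRNPUL2 at 71.1 ± 3.62, HNRNPU at 70.0 ± 4.54, HNRNPA2B1 at 65.6 ± 4.76 and SRSF6 at 65.1 ± 1.74 FPKM. The 4 hnRNP genes at the top did not differ beyond their spread between neighbours. Among the SR proteins, SRSF6 stood apart from SRSF1 at 29.5 ± 5.20 FPKM, which was apart from SRSF9 at 22.4 ± 1.11 FPKM. The gene length implied by the deposited FPKM exceeded the whole genomic span of the gene for 11 of 42 tested members; for HNRNPA2B1 it was 18.7 kb against a span of 11.6 kb, and for SRSF1 8.85 kb against 3.99 kb. A longer length gives a lower FPKM for the same counts. Divided instead by the longest coding transcript of GENCODE release 29, HNRNPA2B1 was highest at 334.5 ± 24.3 CPM per kb (SD, n = 6), then HNRNPK at 236 ± 18.9, HNRNPAB at 165 ± 17.4 and HNRNPL at 162 ± 12.8, and SRSF9 led the SR proteins at 118 ± 5.87 CPM per kb. SF3B5, a single exon, had the same value on both scales. The order of levels thus depended on the length used, as the plot under 2 gene lengths shows, whereas fold changes within a gene did not.

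**Figure D5:**
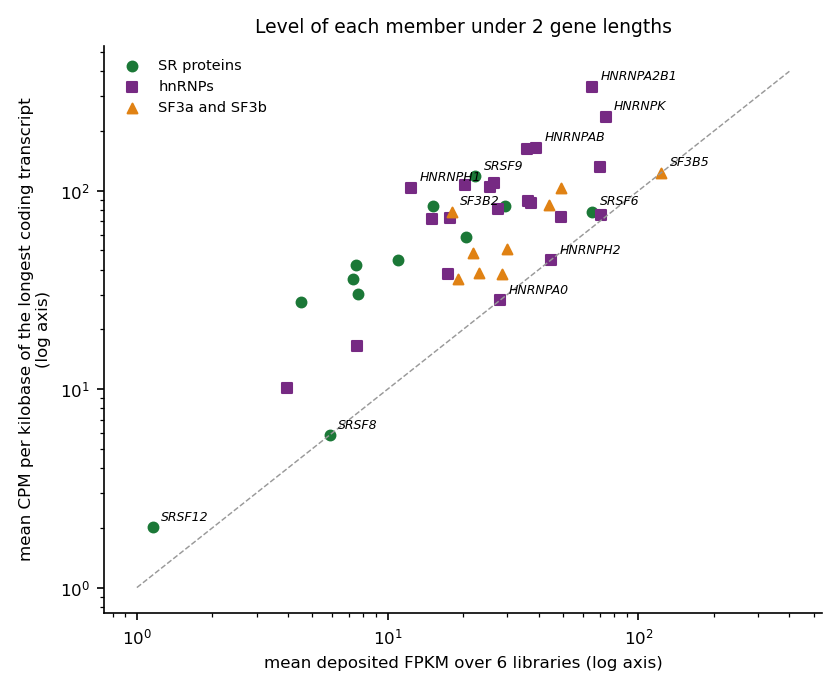
Mean level of each tested member under 2 lengths: deposited FPKM over 6 libraries (x, log axis) and CPM per kilobase of the longest coding transcript (y, log axis), with SR proteins as green circles, hnRNPs as purple squares, SF3 as orange triangles and equality as the dashed line. SF3B5 and HNRNPA0 lie on the line, and HNRNPA2B1, at 65.6 FPKM and 334.5 CPM per kb, lies far above it.

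The counts are per gene and cannot separate splice forms. All 12 SRSF genes have an annotated transcript of the nonsense-mediated decay class in GENCODE release 29, as do 13 of 21 tested hnRNP genes and 3 of 9 SF3 genes, against 42.7% of 13025 tested protein-coding genes. Whether productive or decaying forms of a gene moved was not analysed here. Of the 46 members, 11 lie on chromosome 1, and some lie near each other: SRSF7 and HNRNPLL are 140.0 kb apart on chromosome 2, of which SRSF7 fell and HNRNPLL was not called, and SRSF10 and HNRNPR are 620468 bases apart on chromosome 1, of which SRSF10 rose and HNRNPR fell. The genomic spans of 23 tested members overlap that of another row of the table, among them HNRNPA2B1 with CBX3, HNRNPM with ELAVL1, HNRNPUL1 with TGFB1, SRSF9 with GATC and SF3A2 with PLEKHJ1 on the opposite strand. The strand setting of the counting is not given in the sources used here, so the values of these genes may hold reads of their partner.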

How the data were processed

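Per the file headers, 1 deposited table holds whole-number counts and FPKM of 50868 human genes in the 6 libraries. The submitters' processing notes list HISAT2 2.0.4, StringTie 1.3.3b and edgeR without saying what each did, and a mouse build, although the genes are human Ensembl genes. All 46 members are in GENCODE release 29 (GRCh38), 40 with identical coordinates. The counting rule, its strand setting and the use of the 2 library kits that the labels name are not stated in the sources used here. Each deposited FPKM was the count over the library total and a length fixed for the gene, for 13364 of 13364 genes of 20 counts or more in every library (relative tolerance 0.001).

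The whole table of deposited counts went into edgeR 4.0.16 under R 4.3.3, with TMM scaling, filterByExpr (minimum count 10, minimum total 15) and robust quasi-likelihood F tests of group alone. P-values were adjusted by Benjamini-Hochberg over all 15946 genes that passed (16281 with 5 libraries), and an adjusted p under 0.05 counted as a call. The steps were tested on simulated data. In any library the lowest count of a tested member was 123 and the median 4930; reads without molecular identifiers are not independent molecules. The common coefficient of variation between libraries was 0.209, and 0.122 without P-T3H2-2A replicate 3. Chi-square per gene was 11.6 or more for every pair of libraries. Deviations from the group means correlated at -0.051, 0.16 and 0.11 between libraries of equal number, and the numbers were not taken to pair them. The P-T3H2-2A mean includes replicate 3, which stood apart, so these correlations cannot decide whether equal numbers mark pairs.

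Alternatives were DESeq2 1.42.0, limma-voom and limma-trend on log2 of FPKM plus 1 or plus 0.1 (limma 3.58.1), other scalings and filters, a replicate block and the omission of each library. P-T3H2-2A replicate 3 as sole control and pseudogene rows summed into their parent were tried only after seeing the data. The members, gene lists and markers were chosen with earlier results of these data known. Values by library are given, in each family, for the 4 members of smallest p and the 4 of largest fold change at a mean of 5 CPM or more. They are also given for the 2 of highest FPKM and any whose groups do not overlap. Further members were chosen after their values were seen. In each other list the 2 genes of smallest p with 6 libraries are named, and CLK4 was added after its values were seen. Only some of these have values by library, and the rest have a 5-library log2 fold change alone. Promoters are RefSeq's on GRCh38.p14, and 33 of 39 begin their gene inside a GENCODE transcript of the same strand.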

Additional observations from a re-analysis of the deposited data

How the results depend on the processing

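P-T3H2-2A replicate 3 decided the calls. As labelled, edgeR called 1 gene and 0 members; leaving out each library in turn gave between 0 and 7390 genes, between 0 and 6 SR protein genes, 0 and 15 hnRNP genes and 0 and 9 SF3 genes, the upper values all without that library. Without it, library totals gave 7381 genes, DESeq2 size factors 7404, DESeq2 6765 and summed pseudogene rows 7381. These settings called 6, 7, 5 and 7 SR protein genes, 15, 15, 16 and 15 hnRNP genes and 9 SF3 genes each. With all 6 libraries, DESeq2 called 117 genes, limma-voom 3, every gene of at least 1 count 4, limma-trend on log2 of FPKM plus 1 called 2 and the replicate block 0; each called 0 members. As the sole control, with a spread taken from the P-T3H2 libraries, the same library gave 62 genes and 0 members called. The family medians were then -0.028 for hnRNP, 0.040 for SF3 and -0.032 for SR protein genes. Among the 25 members selected by rule, the sign turned for HNRNPC (0.072), HNRNPM (0.059), SF3A2 (0.052), SF3A3 (0.041), SF3B1 (-0.035), SF3B4 (0.0016) and SF3B5 (0.040). Outside that selection it also turned for HNRNPA1 (0.43), HNRNPL (0.14), SRSF7 (0.13), SF3B6 (0.092), HNRNPH1 (0.090) and SF3A1 (0.074). HNRNPU (0.052), SF3B2 (0.040), SRSF9 (0.0027), HNRNPH2 (-0.0075) and HNRNPLL (-0.028) turned as well. DESeq2 without that library gave an SF3 median of -0.39. SRSF6, close to 0 throughout, turned to 0.0055 without P-T3H2 replicate 3, and without P-T3H2-2A replicate 3 to 0.0080, with library totals 0.0166, DESeq2 size factors 0.0068, DESeq2 0.0022 and summed pseudogene rows 0.0071. Other libraries moved some labelled log2 fold changes by over 1.5 times: HNRNPM to -0.31 and SF3B5 to -0.17 without P-T3H2-2A replicate 2, HNRNPC to -0.26 and HNRNPUL1 to -0.14 without P-T3H2-2A replicate 1, and HNRNPA1L2 to -0.50 without P-T3H2 replicate 2. The cause of these shifts was not tested, and whether P-T3H2-2A replicate 3 carries the right label could not be settled from the files. With 3 libraries a group and 1 of them standing apart, the labelled comparison limits what can be called, and gene counts leave splice forms and closely similar copies unresolved.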
